A study of Mus musculus with 8 samples.

Results

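Myod1 and Myog encode MyoD and myogenin, a pair of basic helix-loop-helix transcription factors that commit muscle stem cells to differentiation. The acetylation of histone H3 at lysine 27 (H3K27ac), a mark of active promoters and enhancers, was followed at both genes and up to 50 kb from either end. The members were taken by name: 2 of 20174 protein-coding genes, with 20 of the 72585 regions obtained by merging the 4 peak lists (Myod1 7 regions, Myog 13). Satellite cells are the resident stem cells of skeletal muscle. All were from C57BL/6 mice, and 2 conditions were compared with 2 H3K27ac libraries each. ASC were activated satellite cells, isolated 2.5 days after injury of the muscle with BaCl2, a salt that kills muscle fibres. FISC were freshly isolated satellite cells with no treatment. ASC and FISC therefore differ by the injury and all that followed it. Separate animals are not named for the replicates, so p-values rest on spread between libraries, which may not be that between animals. Those from limma, the linear-model test used below, also draw on the spread of all features tested. A limma SE is thus not the spread of a single feature's own libraries.

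As background, satellite cells carry the paired-box factor Pax7, and on activation they express Myod1 while they divide. MyoD binds the E-box, CANNTG, as a dimer with E proteins, and it opens chromatin at muscle genes. Myog is switched on later, when cells leave the cycle, and myogenin then drives the genes of the contractile apparatus together with the Mef2 factors. Distal enhancers upstream of mouse Myod1 are known, as is a compact proximal promoter at Myog that holds binding sites for Mef2 proteins and for bHLH factors (E-boxes) and a MEF3 site. The sequences behind these site names, and the assignment of a peak to a named enhancer, were not taken from these data.

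Myod1 (gene ID 17927) lies at chr7:46376474-46379092 on mm10, and its locus with 50 kb on either side spans chr7:46326474-46429092. Its strand was not given in the annotation used here, so the gene end with more covered bases, 46376474, stood for its start. Myog (gene ID 17928) lies on the plus strand at chr1:134290004-134292548, with the locus at chr1:134240004-134342548. Each locus is 103 kb long. The annotation holds gene bodies only, so exons, introns and UTRs were not resolved.

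The 2 protein-coding promoters at the Myog locus in regions with a peak in both ASC lists and in neither FISC list are shown from RefSeq (GRCm38.p6, the assembly of mm10), from 250 bases before to 50 after the start, 5′ to 3′ on the gene's own strand. The first is the Myog start (chr1:134289754-134290053, plus strand). The second is a start inside Ppfia4, a neighbour that encodes liprin alpha-4, 42.9 kb from the Myog start (chr1:134332879-134333178, minus strand). Capitals mark E-boxes (CANNTG), the MEF3 core (TCAGGTT) and the MEF2 core (CTANNNNTA).
Myog start: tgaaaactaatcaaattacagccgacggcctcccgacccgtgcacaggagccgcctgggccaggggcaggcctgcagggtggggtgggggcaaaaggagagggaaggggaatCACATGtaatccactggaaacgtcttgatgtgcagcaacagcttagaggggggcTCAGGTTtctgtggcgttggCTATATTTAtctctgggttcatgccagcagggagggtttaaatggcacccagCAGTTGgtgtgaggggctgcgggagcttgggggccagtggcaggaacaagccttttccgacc
Ppfia4 internal start: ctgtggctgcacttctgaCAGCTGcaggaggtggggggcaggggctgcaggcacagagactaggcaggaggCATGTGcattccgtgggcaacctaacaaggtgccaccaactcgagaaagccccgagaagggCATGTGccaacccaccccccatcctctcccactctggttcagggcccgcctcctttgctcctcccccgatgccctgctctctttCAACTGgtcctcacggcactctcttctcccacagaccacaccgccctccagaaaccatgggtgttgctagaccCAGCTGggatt

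Positions are counted from 1 at the start base, with −1 before it. In the Myog sequence, the search on both strands found E-boxes with first bases at −138 (cacatg) and −12 (cagttg), a MEF3 core at −84 and a MEF2 core at −64. No match overlapped another there. The letters of the MEF2 core were chosen after the sequence was seen, and a fuller MEF2 consensus had no match in this window. Ppfia4 had E-boxes at −232 and 40 (both cagctg), at −179 and −118 (both catgtg) and at −34 (caactg), and neither core. Of 32851 RefSeq promoters of the same length, 72.3% held an E-box, 16.3% held CAGCTG, 4.07% the MEF3 core, 21% the MEF2 core and 1.86% the fuller MEF2 consensus. An E-box is thus a common feature of such windows, while the MEF3 core is not.

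The libraries held 50154 and 54700 peaks in ASC and 45014 and 43092 in FISC, over 49.2 and 57.7 Mb in ASC and 34.4 and 33.7 Mb in FISC. Median peak width was 603 and 615 bases in ASC and 497 and 515 bases in FISC, so ASC peaks were wider at the median. Reads at each summit and in its local background were solved from the deposited fold and p-value, and the genome background was 2.33 and 2.86 reads in ASC and 2.72 and 2.82 reads in FISC. Among summits over the genome background, the weakest listed held 8 or 9 reads in each library. Where the local background was higher, more reads were needed. At Myod1 in FISC replicate 1, a summit of 14 reads over 4.57 had a −log10 q of 2.05. Thus "no peak" means no enrichment above about 8 or 9 reads at best. Of 8 satellite cell markers, 7 and 7 had a covered start in ASC and 8 and 8 in FISC, and the one uncovered in ASC was Calcr, a receptor of quiescent satellite cells. Of 5 fibro-adipogenic markers, 3 were covered in every library (summed 3.35 and 4.48 kb in ASC, 5.34 and 5.36 kb in FISC), but not the same 3. Ly6a was covered for 1.44 and 2.17 kb in ASC and 0 and 0 kb in FISC, and Col15a1 for 0 and 0 kb in ASC and 1.28 and 1.6 kb in FISC. Dpt was covered for 0.762 and 1.26 kb in ASC and 2.37 and 2.27 kb in FISC, Cd34 had a peak in all libraries, and Pdgfra was at 0 throughout. Of 5 myeloid and lymphoid markers 1 and 2 were covered in ASC (0.266 and 1.89 kb) and 1 and 0 in FISC (0.493 and 0 kb), with Ptprc, Cd3e and Cd79a at 0 throughout. Of 3 endothelial markers 1 and 1 were covered in ASC (0.614 and 0.971 kb) and 1 and 2 in FISC (1.33 and 1.64 kb). Of 4 smooth muscle and pericyte markers 1 and 1 were covered in ASC (2.85 and 3 kb) and 2 and 1 in FISC (3.46 and 2.84 kb). Of 5 fibre markers 2 and 3 were covered in ASC (2.09 and 3.57 kb) and 2 and 1 in FISC (2.31 and 2.33 kb), with Ckm and Myh4 at 0 throughout. The part of other cells in the results was not tested.

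H3K27ac was already in place at Myod1 in freshly isolated cells. Peaks covered 13.5 and 16.1 kb of the Myod1 locus in ASC, against 11.6 and 13.6 kb in FISC. The groups overlapped: ASC replicate 1 lay below FISC replicate 2. The means were 14.8 ± 1.77 kb in ASC and 12.6 ± 1.38 kb in FISC (SD, n = 2 each), a difference of 2.19 kb (SE 1.55) that did not pass limma's test over all genes (adjusted p = 0.245). Of the 16.5 kb covered in any library, 10.3 kb were covered in all 4, 0.787 kb in both ASC lists alone and 0.084 kb in both FISC lists alone. The share of covered bases in common (Jaccard index) was 0.807 between the ASC libraries, 0.747 between the FISC libraries and 0.704 to 0.827 between an ASC and a FISC library. The mixed pairs thus spanned the values of the replicate pairs at Myod1. Divided by each list's total covered length, the Myod1 difference turned to −4.1 kb (limma, adjusted p = 0.0117), where the median over all loci moved to −0.398 kb. In bulk chromatin, fewer cells with a mark and less of it per cell cannot be told apart.

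At Myog, little was marked in freshly isolated cells and the pattern differed between conditions. Peaks covered 4.62 and 9.03 kb of the Myog locus in ASC, against 4.36 and 3.21 kb in FISC. The groups did not overlap, although ASC replicate 1 exceeded FISC replicate 1 by a small margin only. The means were 6.83 ± 3.11 kb in ASC and 3.79 ± 0.813 kb in FISC (SD, n = 2 each), a difference of 3.04 kb (SE 1.14, limma, adjusted p = 0.0422). This includes 2.22 kb from a single region at the Ppfia4 internal start, 43.3 kb from the Myog start and without a peak in FISC. With 20 kb from either end, which leaves that region out, the difference was 1.03 kb (limma, adjusted p = 0.467). Among all 16654 loci tested, 50.8% were called higher in ASC and 5.41% lower, the median difference was 1.36 kb, and 71.6% had both ASC libraries above both FISC libraries, so calls like that of Myog were made at about as many loci as not. The call was lost without ASC replicate 2 (0.84 kb, limma, adjusted p = 0.239) and without FISC replicate 2 (2.47 kb, limma, adjusted p = 0.0997). When weaker peaks were dropped until all lists covered the same length, the Myog difference turned to −1.57 kb (limma, adjusted p = 0.0479), and divided by total covered length it was 0.625 kb (limma, adjusted p = 0.577). Of the 11.1 kb covered in any library at Myog, 1.13 kb were covered in all 4, 2.79 kb in both ASC lists alone and 0.388 kb in both FISC lists alone. The Jaccard index was 0.459 between the ASC libraries, 0.578 between the FISC libraries and 0.214 to 0.257 between an ASC and a FISC library. Here every mixed pair shared less than either replicate pair. How often that is so at other loci was not measured, so it cannot be called particular to Myog. The Ppfia4 region, with 2.06 and 2.37 kb in ASC and no peak in FISC, is part of this difference.

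**Figure D1:**
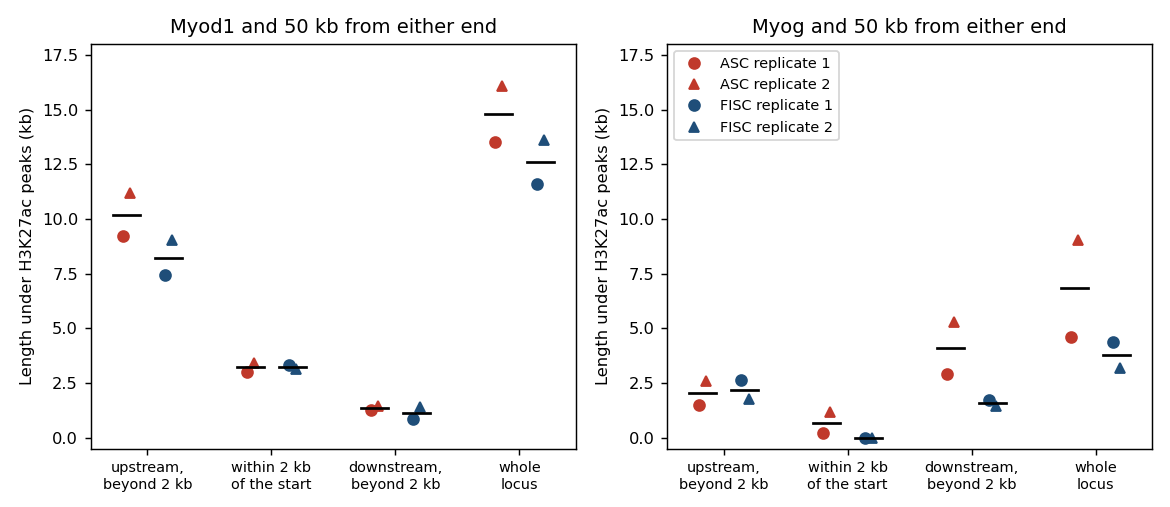
Length under H3K27ac peaks (kb) in each library at the Myod1 locus (left) and the Myog locus (right), upstream, within 2 kb of the start, downstream and in all; red is ASC, blue is FISC, circles are replicate 1, triangles replicate 2 and bars the mean of 2. Myod1 start breadth is alike in all libraries (3.03 to 3.41 kb), while the Myog start has no covered base in either FISC library.

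The start of Myod1 carried the same wide domain in all libraries. The merged region at the start (chr7:46375027-46380010) ran from 1.45 kb before the start to 3.54 kb after it, past the end of the 2619-base gene. Peaks covered 4.09 and 4.86 kb of it in ASC, against 4.17 and 4.57 kb in FISC (limma, adjusted p = 0.83); divided by each list's total covered length, this difference was called lower (−1.96 kb, limma, adjusted p = 0.00981). Within 2 kb of the start, they covered 3.03 and 3.41 kb in ASC, against 3.31 and 3.15 kb in FISC. The difference was −0.0155 kb (SE 0.161, limma, adjusted p = 0.95), where 26.6% of 12621 genes were called higher in ASC and 3.49% lower and the median difference was 0.285 kb. Divided by total covered length, the start difference was −1.51 kb (limma, adjusted p = 0.00423), where the median over all starts moved to −0.359 kb. The summit lay inside the gene, 0.435 and 0.285 kb after the start in ASC and 0.439 and 0.481 kb in FISC. It held 50 and 51 reads in ASC, against 48 and 59 reads in FISC. Their exact Poisson 95% intervals, which cover counting error only, were 37.1 to 65.9 and 38 to 67.1 reads in ASC and 35.4 to 63.6 and 44.9 to 76.1 reads in FISC, so no difference was detectable at this depth. The deposited fold of this peak was 15.3 and 13.5 in ASC and 13.2 and 15.7 in FISC.

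Upstream of Myod1, 4 wide regions were present in every library, in 2 clusters between −39.8 and −22.2 kb from the start. No list had a peak between 46354291 and 46375027, the stretch that separates the nearer cluster from the start domain and holds the lncRNA gene Gm45923. In that nearer cluster, 20 to 30 kb upstream, peaks covered 5.19 and 5.55 kb in ASC, against 3.84 and 4.58 kb in FISC, without overlap (exact 2-sided permutation p = 0.333, the smallest that 2 against 2 can give). From 30 to 50 kb upstream they covered 4.04 and 5.64 kb in ASC, against 3.62 and 4.44 kb in FISC, and the groups overlapped. In all, upstream peaks beyond 2 kb covered 9.23 and 11.2 kb in ASC, against 7.46 and 9.02 kb in FISC. The groups did not overlap there, ASC being higher, whereas they overlapped at the start. Separation with ASC higher was common: it was found at 71.6% of loci, 62.2% of starts and 60.7% of regions tested. How often it is found in upstream stretches of other genes was not measured, so it cannot be called particular to Myod1.

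The regions at −38.5 and −23.4 kb were wider in ASC by the test. At −38.5 kb (chr7:46336719-46339251), peaks covered 2.42 and 2.45 kb in ASC, against 1.81 and 2.02 kb in FISC (difference 0.52 kb, SE 0.127, limma, adjusted p = 0.0355). At −23.4 kb (chr7:46351809-46354291), they covered 2.12 and 2.48 kb in ASC, against 1.71 and 1.71 kb in FISC (difference 0.593 kb, SE 0.166, limma, adjusted p = 0.0488). ASC lay above FISC without overlap in both regions, as in 60.7% of all regions. Among all 45643 regions tested, 44.2% were called higher in ASC and 13.4% lower, and among the 25887 with a peak in both conditions, 26.9% and 5.66%. Of the 6 tested at Myod1, all with peaks in both conditions, limma called 2 higher and 0 lower, and none was lower at an unadjusted p under 0.05. When weaker peaks were dropped until all lists covered the same length, the regions at −36.6 and −34.9 kb read −0.263 and −1.85 kb. Neither ASC list kept a peak there, and both FISC lists did. These regions thus passed the filter on coverage through FISC alone and had to differ, so no test is given. The call at −38.5 kb was lost whichever library was left out (limma, adjusted p = 0.105 to 0.216). The call at −23.4 kb was lost without ASC replicate 2, FISC replicate 1 or FISC replicate 2 (limma, adjusted p = 0.176, 0.142 and 0.146). With coverage divided by each list's total, both differences turned to −0.456 and −0.311 kb, and neither was called.

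The other 2 wide upstream regions did not pass as covered. At −26.5 kb (chr7:46348387-46351467), peaks covered 3.06 and 3.06 kb in ASC, against 2.13 and 2.87 kb in FISC (limma, adjusted p = 0.186). It did pass without FISC replicate 2 (0.931 kb, limma, adjusted p = 0.0485), and, fused with the −23.4 kb region by joining peaks within 500 bases, it passed as well (1.19 kb, limma, adjusted p = 0.02). A single peak spanned that region in both ASC libraries and in FISC replicate 2, while FISC replicate 1 had 3 peaks in it. At −34.9 kb (chr7:46340330-46342879), peaks covered 1.62 and 2.55 kb in ASC, against 1.56 and 2.13 kb in FISC, and the groups overlapped (limma, adjusted p = 0.669). A short region at −36.6 kb was covered for 0 and 0.647 kb in ASC and 0.244 and 0.281 kb in FISC (limma, adjusted p = 0.855). The last region at the locus, 230 bases at the start of Kcnc1, a potassium channel gene 20 kb downstream, was listed in ASC replicate 1 alone with 10 reads and was not tested.

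Peak number went the other way at Myod1. The locus held 8 and 7 peaks in ASC, against 13 and 10 peaks in FISC, without overlap (7.5 ± 0.707 in ASC and 11.5 ± 2.12 in FISC, SD, n = 2 each, exact permutation p = 0.333). Fewer peaks in both ASC libraries than in both FISC libraries were seen at 15.9% of all loci, and more at 33.1%. Mean peak width at Myod1 was 1693.4 and 2292.9 bases in ASC, against 895 and 1358.8 bases in FISC. Neighbouring FISC peaks lay under 1 longer ASC peak in places: the −38.5 kb region held 1 peak in each ASC library and 2 in each FISC library. Relative to the size of each list, Myod1 took 276 and 278 bases per Mb covered in ASC, against 339 and 403 bases per Mb in FISC, lower in both ASC libraries.

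**Figure D2:**
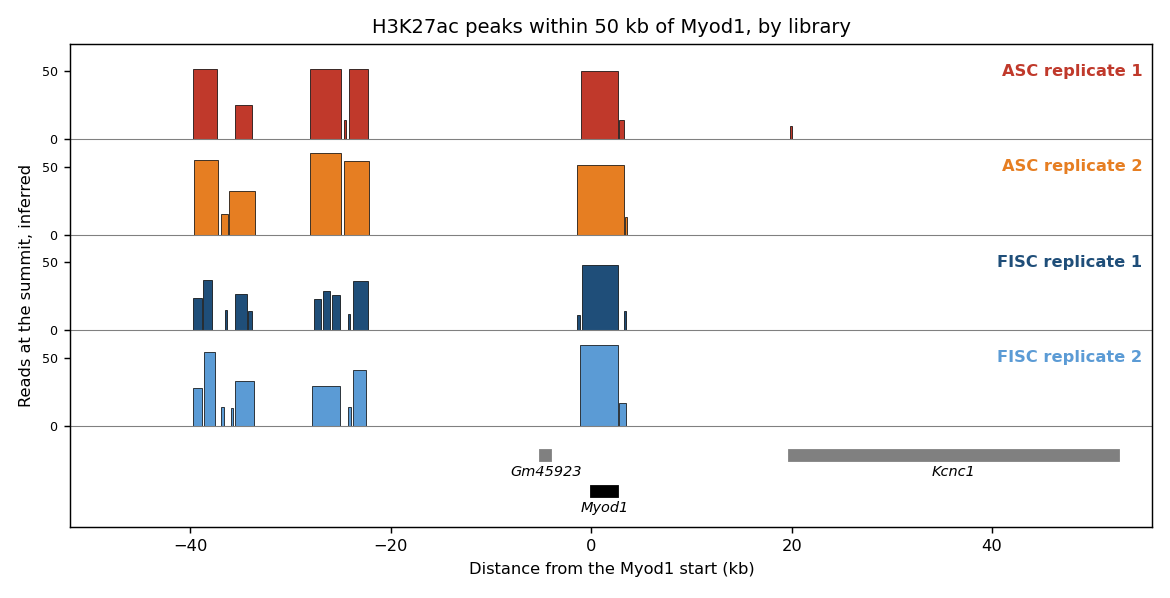
H3K27ac peaks within 50 kb of Myod1 in each library, by distance from the start (kb); each box spans a peak, its height is the inferred number of reads at the summit, and the lower bars are genes. The start domain is alike in all 4 libraries, while the tallest boxes of the regions at −26.5 and −23.4 kb reach 52 to 60 reads in ASC and 29 to 41 reads in FISC.

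Since no difference was detectable in the start summit, it served as a yardstick within each library for the upstream summits, a measure chosen after the values were seen. At −26.5 kb the highest summit held 52 and 60 reads in ASC, against 29 and 29 reads in FISC (exact Poisson 95% intervals 38.8 to 68.2 and 45.8 to 77.2 in ASC, 19.4 to 41.6 for both in FISC). Divided by the start summit, this was 1.04 and 1.18 in ASC, against 0.604 and 0.492 in FISC. At −23.4 kb the summits held 52 and 54 reads in ASC and 36 and 41 reads in FISC. Their intervals overlapped between conditions (38.8 to 68.2 and 40.6 to 70.5 in ASC, 25.2 to 49.8 and 29.4 to 55.6 in FISC). Divided by the start summit, these reads gave 1.04 and 1.06 in ASC, against 0.75 and 0.695 in FISC. At −38.5 kb the summits held 52 and 55 reads in ASC and 37 and 54 reads in FISC, so the reads themselves overlapped, and the ratio was 1.04 and 1.08 in ASC, against 0.771 and 0.915 in FISC. The ratios of these 3 regions did not overlap, ASC being higher (exact permutation p = 0.333 for each). At −38.5 kb this came only with the division by the start summit. The counting error of the upstream and start summits was not carried into any of the ratios. How often such ratios separate at other genes was not measured, so they cannot be called particular to Myod1. In breadth, ASC lay above FISC without overlap in 60.7% of all regions. At −34.9 kb the ratio was 0.5 and 0.627 in ASC and 0.562 and 0.559 in FISC, and the groups overlapped. With the deposited fold in place of reads, the −26.5 and −23.4 kb regions stayed apart and the −38.5 kb region did not (1.04 and 0.809 in ASC, 0.776 and 0.917 in FISC). Within its own list, the start peak had the highest fold of the locus in both FISC libraries and in neither ASC library, where an upstream peak exceeded it. The highest upstream fold was 15.9 and 15.8 in ASC and 10.2 and 14.4 in FISC, against 15.3 and 13.5 in ASC and 13.2 and 15.7 in FISC at the start. In each library the Poisson intervals of the reads at these summits overlapped, so a change of rank between conditions is not shown.

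Just outside the 50 kb limit, the next regions upstream of Myod1 differed from each other. At −55 kb (chr7:46320053-46322821), peaks covered 2.55 and 2.59 kb in ASC, against 1.42 and 1.99 kb in FISC (limma, adjusted p = 0.046), and the ratio of its summit to the start was 1.08 and 1.12 in ASC, against 0.479 and 0.729 in FISC. This call was lost without ASC replicate 1, ASC replicate 2 or FISC replicate 1 (limma, adjusted p = 0.0666, 0.0874 and 0.122). At −61.1 kb (chr7:46313003-46317723) they covered 3.47 and 4.27 kb in ASC and 3.51 and 4.25 kb in FISC (limma, adjusted p = 0.993). The string of upstream domains thus ran past the limit in both conditions.

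The Myog start had a peak in both ASC libraries and none in FISC. The peak in ASC replicate 1 was short and weak: 200 bases (chr1:134289544-134289743), with 10 reads over a background of 2.35, a deposited fold of 3.28 and a −log10 q of 2.61. It ended 0.261 kb before the start, just outside the promoter window printed above. The peak in ASC replicate 2 spanned 1171 bases (chr1:134289488-134290658) and the whole of that window, with 19 reads over 2.86, a deposited fold of 5.18 and a −log10 q of 8.41. In ASC replicate 1, 94% of the listed peaks had a fold at least as high. Within 2 kb of the start, peaks covered 0.2 and 1.17 kb in ASC, against 0 and 0 kb in FISC. The groups did not overlap, as at 62.2% of all starts with ASC higher, but the spread within ASC was as large as the difference (0.685 kb, SE 0.313, limma, adjusted p = 0.148, for a start that entered the test through ASC alone). The same region holds the start of Myoparr, a long noncoding RNA read from the opposite strand 0.243 kb before the Myog start, so H3K27ac there cannot be given to one gene or the other.

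The widest and strongest ASC peak at the Myog locus lay at the Ppfia4 internal start shown above, not at Myog. In this region (chr1:134332090-134334461), peaks covered 2.06 and 2.37 kb in ASC, against 0 and 0 kb in FISC (difference 2.22 kb). A region with peaks in 1 condition only passed the filter on coverage through that condition, so it had to differ, and no test is given for such regions here. The ASC summits held 36 and 50 reads, with deposited folds of 11.1 and 13.2, the highest of the locus in both ASC lists. The highest folds at the locus in FISC were 5.65 and 6.02. The 5′-most start of Ppfia4 had no covered base within 2 kb in any library. When weaker peaks were dropped until all lists covered the same length, this was the one region of the locus that kept a peak in an ASC list, with 2.06 and 2.37 kb in ASC, against 0 and 0 kb in FISC.

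A second pair of ASC regions lay inside the Ppfia4 gene. At 17.9 kb from the Myog start (chr1:134307554-134308192), peaks covered 0.405 and 0.558 kb in ASC, against 0 and 0 kb in FISC (difference 0.482 kb). At 17.2 kb they covered 0.2 and 0.46 kb in ASC, against 0 and 0 kb in FISC (difference 0.33 kb). Together with the start and the internal Ppfia4 start, these made 4 of 13 Myog regions with a peak in both ASC libraries and in neither FISC library, a pattern of 19.9% of all regions. At Myod1, 0 of 7 regions had it, and 5 had a peak in all libraries, as 26.9% of all regions did. At Myog, 2 of 13 had a peak in all libraries.

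Other regions at Myog were present in both conditions or in FISC. The region at −44.8 kb, between genes (chr1:134244308-134246133), was covered for 1.25 and 1.46 kb in ASC and 1.6 and 1.27 kb in FISC (limma, adjusted p = 0.733). At 9 kb after the start, at the beginning of the lncRNA gene Gm32267 and within Ppfia4, peaks covered 0.254 and 0.846 kb in ASC, against 0.972 and 0.823 kb in FISC (limma, adjusted p = 0.289). At 13 kb they covered 0 and 0.747 kb in ASC, against 0.752 and 0.614 kb in FISC (limma, adjusted p = 0.421). The start of the lncRNA gene Gm32221, 13.5 kb before Myog, lay in a region covered for 0.25 and 0 kb in ASC and 0.278 and 0.499 kb in FISC (limma, adjusted p = 0.168). ASC lay below FISC without overlap in that region alone of the 8 tested at Myog, beside 20.4% of all regions. Of these 4 regions with peaks in both conditions, limma called 0 in either direction as covered, and none had an unadjusted p under 0.05. At equal covered length the 4 differences were −1.44, −0.897, −0.683 and −0.389 kb, where both FISC lists kept a peak in each and neither ASC list did. At that setting these regions passed the filter on coverage through FISC alone and had to differ, so no test is given. Divided by total covered length, the regions at −44.8 and 9 kb were called lower (−0.729 and −0.718 kb, limma, adjusted p = 0.0291 and 0.0371). Regions listed in 1 library were found at −4.72, −3.94 and 7.42 kb in ASC replicate 2 and at −43 and −12.5 kb in FISC replicate 1, 0.25 to 0.729 kb long, and were not tested.

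**Figure D3:**
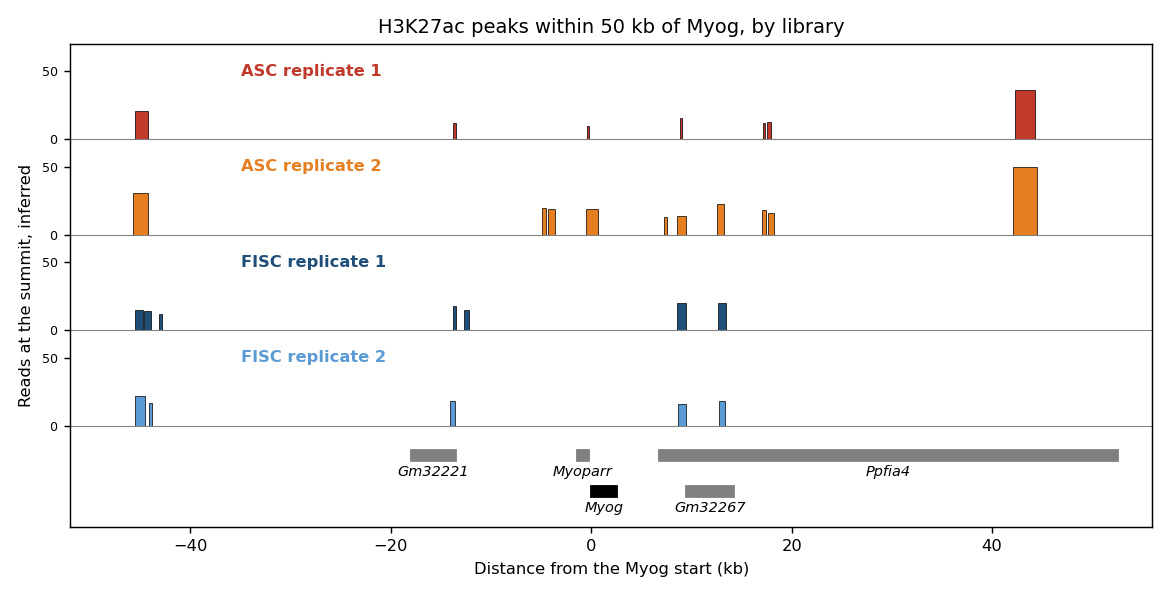
H3K27ac peaks within 50 kb of Myog in each library, by distance from the start (kb), drawn as for Myod1; each box spans a peak and its height is the inferred number of reads at the summit. The internal Ppfia4 start near 43.3 kb is tall in both ASC libraries (36 and 50 reads) and without a peak in FISC, and the Myog start itself reaches 10 and 19 reads in ASC.

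By side of the gene, the Myog difference lay downstream, where the Ppfia4 internal start alone differed by 2.22 kb. Peaks more than 2 kb upstream covered 1.5 and 2.58 kb in ASC and 2.64 and 1.77 kb in FISC, and the groups overlapped. Peaks more than 2 kb downstream covered 2.92 and 5.28 kb in ASC, against 1.72 and 1.44 kb in FISC, without overlap (exact permutation p = 0.333). The Myog locus held 7 and 10 peaks in ASC and 7 and 5 in FISC (exact permutation p = 0.667), with 2 and 3 peaks over 1 kb in ASC and 0 and 0 in FISC. Within each library Myod1 exceeded Myog by 8.92 and 7.02 kb in ASC and by 7.27 and 10.4 kb in FISC, a gap that did not differ between conditions beyond the spread (exact permutation p = 0.667).

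By locus breadth over the 4 libraries, the genes nearest to Myod1 were Fkbp5 (Euclidean distance 0.684 kb), Ppp6r2 (1.03 kb) and Arpc2 (1.32 kb). Fkbp5 was covered for 13.3 and 15.8 kb in ASC and 12.2 and 13.5 kb in FISC. The genes nearest to Myog were Rnf220 (0.932 kb), Sgta (0.956 kb) and Tmem53 (1.02 kb), and Rnf220 was covered for 4.46 and 8.25 kb in ASC and 4.71 and 3.54 kb in FISC. Rnf220 and Tmem53 are neighbours on chromosome 4, and their loci overlap.

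The rest of the pathway was described by breadth within 2 kb of each gene's start, for 82 genes in 5 lists, of which 79 had a start and 69 were tested. Of the 62 with peaks in both conditions, 14 were called higher and 2 lower in ASC by limma, beside 25.2% higher and 2.68% lower of 11929 such starts of all genes, a share near the background. The other 7, all targets, had peaks in 1 condition only and are described without a test. The 14 and 2 became 15 higher and 2 lower when ASC replicate 1 was left out, and 9 higher and 7 lower when ASC replicate 2 was. They became 5 higher and 0 lower when FISC replicate 1 was left out, and 6 higher and 0 lower when FISC replicate 2 was. Among the upstream regulators, which act before or with MyoD, 0 of 12 were called in either direction by limma, and 1 (Srf) had an unadjusted p under 0.05. Srf, the serum response factor, was covered for 2.71 ± 0.187 kb in ASC and 2.23 ± 0.0445 kb in FISC (limma, adjusted p = 0.0576). Pax3, a paired-box factor related to Pax7, was covered for 0.292 ± 0.414 kb in ASC and 0.56 ± 0.423 kb in FISC (limma, adjusted p = 0.479). Pax7 (−0.113 kb) and Myf5 (−0.0565 kb), the factors that mark satellite cells, were wide in both conditions and were not called. Of the E proteins, MyoD's dimer partners, 0 of 3 were called, none at an unadjusted p under 0.05: Tcf3 differed by 0.486 kb (limma, adjusted p = 0.161) and Tcf4 by 0.243 kb (limma, adjusted p = 0.244).

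Among the inhibitors of MyoD, 3 of 14 rose and 2 fell, beside the 25.2% and 2.68% of all such starts. Heyl, a Notch effector, fell to 1.39 ± 0.324 kb in ASC, against 2.73 ± 0.179 kb in FISC (limma, adjusted p = 0.0104), and Mdfi, which holds MyoD in the cytoplasm, fell to 0.453 ± 0.305 kb in ASC, against 1.4 ± 0.082 kb in FISC (limma, adjusted p = 0.0169). Snai1, a repressor that binds E-boxes, rose to 1.7 ± 0.488 kb in ASC, against 0.511 ± 0.0453 kb in FISC (limma, adjusted p = 0.022). Id2, which sequesters E proteins, rose to 3.89 ± 0.156 kb in ASC, against 2.88 ± 0.383 kb in FISC (limma, adjusted p = 0.0216). Bhlhe41, named after its values were seen, was the third to rise (0.672 kb, limma, adjusted p = 0.0104). Without FISC replicate 1 or FISC replicate 2 neither Heyl, Mdfi nor Snai1 was called (limma, adjusted p = 0.0583 to 0.114), and Id2 was not called without ASC replicate 2 (limma, adjusted p = 0.0556).

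Of the cofactors, 5 of 20 rose and 0 fell by limma, a share near the 25.2% of all such starts, and the only one lower at an unadjusted p under 0.05 was Hdac4, a deacetylase (−0.512 kb, adjusted p = 0.0563), named after its values were seen. Those that rose included Meis1, a homeodomain factor (0.734 kb, limma, adjusted p = 0.0365), Carm1, an arginine methyltransferase (0.693 kb, limma, adjusted p = 0.0284), and Cdon, a cell surface receptor (0.65 kb, limma, adjusted p = 0.0415). Ezh2, a methyltransferase of histone H3 named after its values were seen, rose as well (0.536 kb, limma, adjusted p = 0.0376). Ep300, an acetyltransferase that writes H3K27ac, had the largest difference in that list and did not pass (0.765 kb, limma, adjusted p = 0.0944). Leaving out ASC replicate 1 gave 3 cofactors higher and 0 lower, leaving out ASC replicate 2 gave 1 higher and 2 lower, leaving out FISC replicate 1 gave 0 in either direction, and leaving out FISC replicate 2 gave 1 higher.

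Targets in differentiation were the one list with starts marked in both libraries of 1 condition and in neither of the other. Of 28 targets with a start, 6 had a peak within 2 kb of it in both ASC libraries and in neither FISC library, beside 2.44% of the starts of all 20174 genes, and 1 had the opposite pattern, beside 0.991%. The 6, those outside the rule on named genes given after their values were seen, were Ttn, Chrng, Mymk, Myh3, Lmod3 and Mybph. Ttn, the giant sarcomere protein titin, was covered for 3.52 and 3.7 kb in ASC, against 0 and 0 kb in FISC. Chrng, the fetal subunit of the acetylcholine receptor, was covered for 2.01 and 2.42 kb in ASC, against 0 and 0 kb in FISC. The opposite pattern was that of Dmd, dystrophin, named after its values were seen, with 0 and 0 kb in ASC, against 1.82 and 2.13 kb in FISC at the start used here. Mybph lies on the same chromosome as Myog, upstream of the 50 kb limit. Fibre genes such as Ckm, Myh8 and Actc1 were among 7 targets with no covered start in any library, as were 6970 of all genes. Over all 28 targets the median difference was 0.375 kb, beside 0.0215 kb over all 20174 genes.

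Of the 13 targets tested that had peaks in both conditions, 6 rose and 0 fell by limma, beside the 25.2% and 2.68% of all such starts. Tnnt3, fast troponin T, was covered for 2.03 and 2.32 kb in ASC, against 0 and 0.061 kb in FISC. Ryr1, also among the 6 and named after its values were seen, was covered for 1.04 and 1.63 kb in ASC, against 0.399 and 0 kb in FISC. With a FISC peak in 1 library only, both starts passed the coverage filter through ASC. Their calls thus carry little weight, and no p-value is given for them. Chrna1, another subunit of the acetylcholine receptor, was covered for 3.57 ± 0.158 kb in ASC, against 1.59 ± 0.0955 kb in FISC (limma, adjusted p = 0.00232). The count became 7 higher and 0 lower without ASC replicate 1 and 6 higher and 1 lower without ASC replicate 2. Without FISC replicate 1 it was 2 higher and 0 lower, and without FISC replicate 2 it was 2 higher and 0 lower. For Chrna1, both ASC libraries (3.46 and 3.68 kb) lay above both FISC libraries (1.66 and 1.52 kb).

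With coverage divided by each list's total, the lists read 0 higher and 10 lower for upstream regulators, 0 and 1 for E proteins, 1 and 10 for inhibitors, 0 and 13 for cofactors and 7 and 4 for the 13 targets with peaks in both conditions. With lists at equal covered length, these targets read 3 higher and 0 lower of the 11 still tested, the cofactors 2 and 0 and the inhibitors 2 and 3. Of the 6 targets called higher as covered, 6 were called higher after the division and 3 at equal covered length. The 6 include Tnnt3 and Ryr1, which passed the coverage filter through ASC and whose calls carry little weight.

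**Figure D4:**
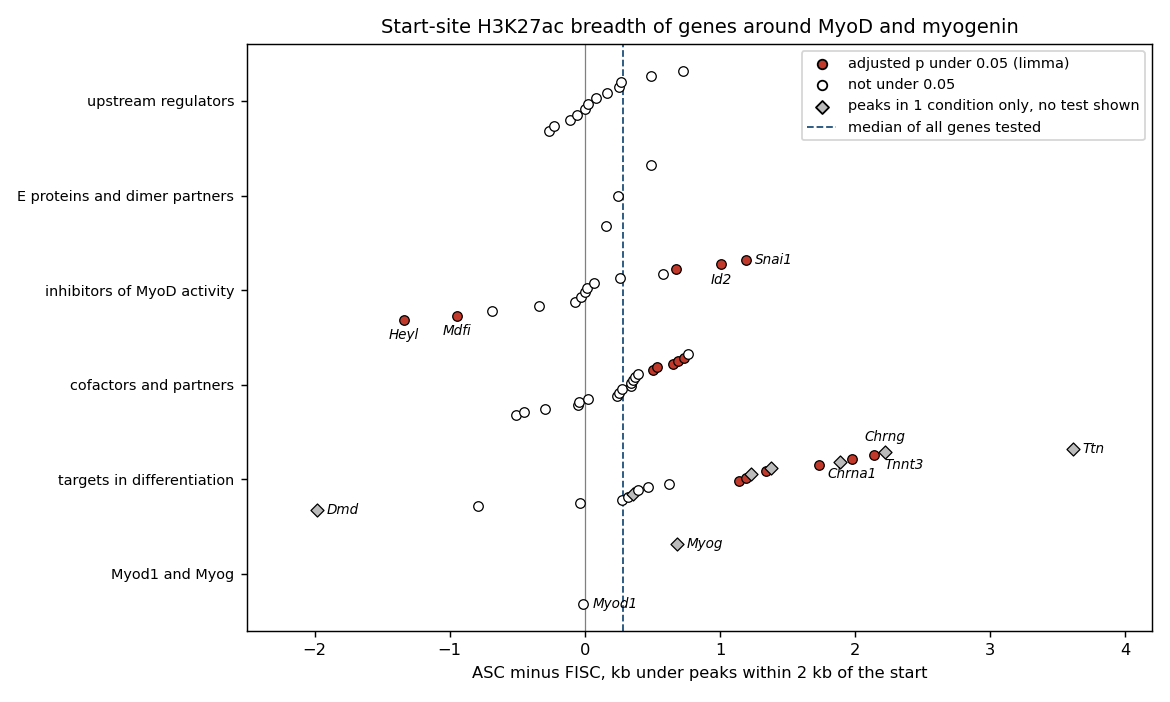
ASC minus FISC difference in kb under peaks within 2 kb of the start, for tested genes of the 5 lists, Myod1 and Myog. Each circle is a gene with peaks in both conditions, filled where the adjusted p (limma) is under 0.05. Each diamond is a gene with peaks in 1 condition only, and the dashed line is the median of all genes tested (0.285 kb). Myod1 lies at −0.0155 kb, and Ttn (3.61 kb) stands farthest to the right.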

How the data were processed

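H3K27ac ChIPmentation of satellite cells gave 4 libraries (2 ASC, 2 FISC), each with a narrow peak list from the authors; inputs entered no test. Per the labels' protocols, reads were single, of 75 bases. Per the submitters' processing notes, bcl2fastq 2.19, BWA, Picard and MACS2 were used on mm10; for the last 3, versions and settings were not given in the sources used here. Fold enrichment, as deposited, is the ratio of summit reads over local background. The deposited p- and q-values are −log10 values from MACS2, and the summits and peak ends are the authors' positions. Lists hold peaks down to a −log10 q of 1.33 to 1.37.

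Python 3.11.15 and R 4.3.3 were used. Summit reads were solved from fold and p, assuming MACS2's pseudocount; 61.5 and 71.5% of folds in ASC and 81.3 and 78% in FISC were whole reads over the genome background (tolerance 0.01 reads). Peaks of any list that shared at least 1 base were merged into regions. Kb under peaks per locus, start window (2 kb on each side) and region was fitted with limma 3.58.1 (eBayes with trend, no scaling, linear scale) on features covered in at least 2 of 4 libraries, with Benjamini-Hochberg adjustment over all features at 0.05, and the fit was tested on simulated data. Features with peaks in 1 condition only passed this filter through it and, the Myog start apart, are given without a test, a choice made after the data were seen. Starts were RefSeq's 5′-most for 17492 genes and, for 2682 including Myod1, the gene end with more covered bases. Single values had exact 2-sided permutation tests. The members, lists and alternatives were chosen with earlier results of these data known. Named genes were all members' regions and neighbours, the 3 genes nearest in locus breadth, and the 2 to 4 genes per list with the largest start difference; some of these are not reported here. The labels give no sequencing batch.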

Additional observations from a re-analysis of the deposited data

How the results depend on the processing

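With weaker peaks dropped until the lists covered equal lengths, the ASC minus FISC difference in locus breadth was −0.47 kb at Myod1 and −1.57 kb at Myog (limma, adjusted p = 0.766 and 0.0479), the start of Myod1 read 0.167 kb, the Myog peak count −5, and 17146 regions were called, more of them lower (11513) than higher (5633) in ASC. Divided by total covered length, the locus of Myod1 read −4.1 kb and that of Myog 0.625 kb (limma, adjusted p = 0.0117 and 0.577), the start of Myod1 −1.51 kb (limma, adjusted p = 0.00423), and 5987 genes were called at the start, 981 higher and 5006 lower, against 3362 higher and 440 lower as covered. At the loci of all genes, calls higher made up 90.4% as covered, 39.7% so divided and 49.8% at equal covered length; at starts 88.4, 16.4 and 57.9%; in regions 76.7, 56.5 and 32.9%. The Myog locus also missed the threshold with 20 kb from either end (1.03 kb), at equal peak number (2.94 kb) and on the log2(kb + 0.1) scale (0.774). The start of Myod1, never called as covered, read 0.025 kb with 1 kb and 0.101 kb with 5 kb on each side, and 0.167 kb at a −log10 q or a fold of at least 5 or at equal peak number. With 1 kb on each side 1943 genes were called at the start, and 14301 regions at a fold of at least 5. Leaving out each library in turn, the Myod1 locus read 0.936 to 3.44 kb (called without ASC replicate 1, limma, adjusted p = 0.0221), the Myog locus 0.84 to 5.25 kb and the start of Myod1 −0.206 to 0.175 kb, with 5287 to 10965 genes called at the locus, 949 to 3675 at the start and 6839 to 11066 regions. Myog's start and the regions seen in ASC alone had no value without an ASC library. For Myog's start the cut to stronger peaks gave none either.

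Among single regions the sign turned on division by total covered length at −55 (−0.0774 kb), −38.5 (−0.456 kb), −36.6 (−0.0922 kb), −34.9 (−0.691 kb), −26.5 (−0.693 kb), −23.4 (−0.311 kb) and the start (−1.96 kb, called lower) of Myod1. At equal covered length it turned at −36.6 (−0.263 kb) and −34.9 kb (−1.85 kb), where only the FISC lists kept a peak. On the log2 scale it turned at −36.6 kb (−0.406). Leaving out 1 library each, the values spanned −0.263 to 0.385 kb at −36.6 kb, −0.229 to 0.701 kb at −34.9 kb (ratio to the start summit −0.0609 to 0.0665), −0.285 to 0.487 kb at the start, and at Myog −0.237 to 0.0845 kb at −44.8 kb and −0.683 to 0.064 kb at 13 kb. The −44.8 kb region also turned with a −log10 q (0.722 kb) or fold (0.875 kb) of at least 5. The causes were not tested.

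Same-numbered libraries did not deviate together (r = −0.0748 over loci, −0.00827 over starts and 0.0164 over regions). With 2 libraries per condition this cannot show whether they share a batch or an animal, and the labels give only the number. With replicate number as a replicate block, Myod1 read 2.19 kb and Myog 3.04 kb at the locus (limma, adjusted p = 0.369 and 2.84e-04) and −0.0155 and 0.685 kb at the start (limma, adjusted p = 0.955 and 0.0823), with 8723 genes called at loci, 3447 at starts and 28834 regions. The block ended the call at −38.5 kb of Myod1 (limma, adjusted p = 0.0546). Depth limits all of this to peaks of about 8 reads or more, and to stronger ones where the local background was higher.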
